A study of Oryza sativa with 35 samples.

Results

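The 7 genes described here are rice MADS-box genes of the APETALA1 (AP1) and SEPALLATA types: MADS1, MADS5, MADS7, MADS8 and MADS34 of the SEPALLATA type, and MADS14 and MADS15 of the AP1 type. They were chosen by name, and the array's annotation assigns each of them a probe set of its own. Each was read at its brightest probe set over the 35 arrays. Other AP1 type genes with a probe set of their own, such as MADS18, are not among the 7. They are 7 of 17905 genes with a probe set of their own, and their 13 probe sets are among 57258 on the array once controls are left out.

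Gene expression was measured in Oryza sativa cultivar Nipponbare at heading, the stage at which the panicle leaves the sheath of the flag leaf. Plants stood in soil in a greenhouse, and no genotype or treatment differs between the samples, so organ and position are the only variables. There were 11 groups with replicates: flower before anthesis, panicle branch, node II, node I, internode I base, internode I top, flag leaf blade base, flag leaf blade middle, flag leaf blade tip, flag leaf sheath base and flag leaf sheath top. Each had 3 arrays except the sheath base with 2, and 1 array each covered the whole blade of the flag leaf, of leaf 2 and of leaf 4.

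MADS-box genes encode transcription factors that act in complexes of several proteins. In grasses, AP1 type genes act downstream of florigen, the mobile flowering signal, and give the shoot apex the identity of an inflorescence. SEPALLATA type proteins join the other classes of MADS proteins in complexes that specify spikelet and floral organs. MADS1 (LHS1) is known for the identity of lemma and palea, MADS34 (PAP2) for panicle branching and spikelet identity, and MADS7 and MADS8 for the inner floral organs. MADS5 is the close relative of MADS1. MADS14 and MADS15 are known for the identity of the inflorescence meristem, and MADS15 also for the palea.

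Levels are log2 values of the deposited signals after quantile normalization, so a step of 1 is a 2-fold step. A probe set reads its own transcript with its own brightness, and for this reason no gene's level is set against another's. The median of all values was 5.83, and a level below it is a dim signal whose distance from another dim signal depends on the noise of the scan. A difference was called where limma's adjusted p (Benjamini-Hochberg over 38647 probe sets tested) was under 0.05 and the change was at least 2-fold. Errors of differences are limma's standard errors (SE). The labels call the replicates biological without saying that they came from separate plants, so a p-value here speaks only of the spread among these samples. In whole organs, fewer cells of a type and less RNA per cell cannot be told apart. The small number of arrays limits the precision of every value.

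Correlation between arrays of one group was 0.917 to 0.951 in the groups of 3 and 0.864 in the pair of the sheath base, where the arrays were the least alike. The flower and the nodes carried their markers. There, 6 of 6 flower markers (MADS2, MADS4, MADS16, MADS3, MADS58 and DL) stood above the median of all values on every flower array. Both measured node markers (Lsi2 and Lsi6) did so in node I and node II. The 4 measured green leaf markers (RBCS, PORA, CHLH and GLK1) did not peak in the leaf. Their summed signal was 64667 to 70939 in the panicle branch and 57803 to 64370 in internode I top. In the blade base, middle and tip it was 48068 to 50316, 47320 to 51865 and 45352 to 53289. The flower markers' summed signal was 39015 to 44329 in the flower, against 2396 to 5117 in the panicle branch, where 3 of 6 stood above the median on every array.

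**Figure D1:**
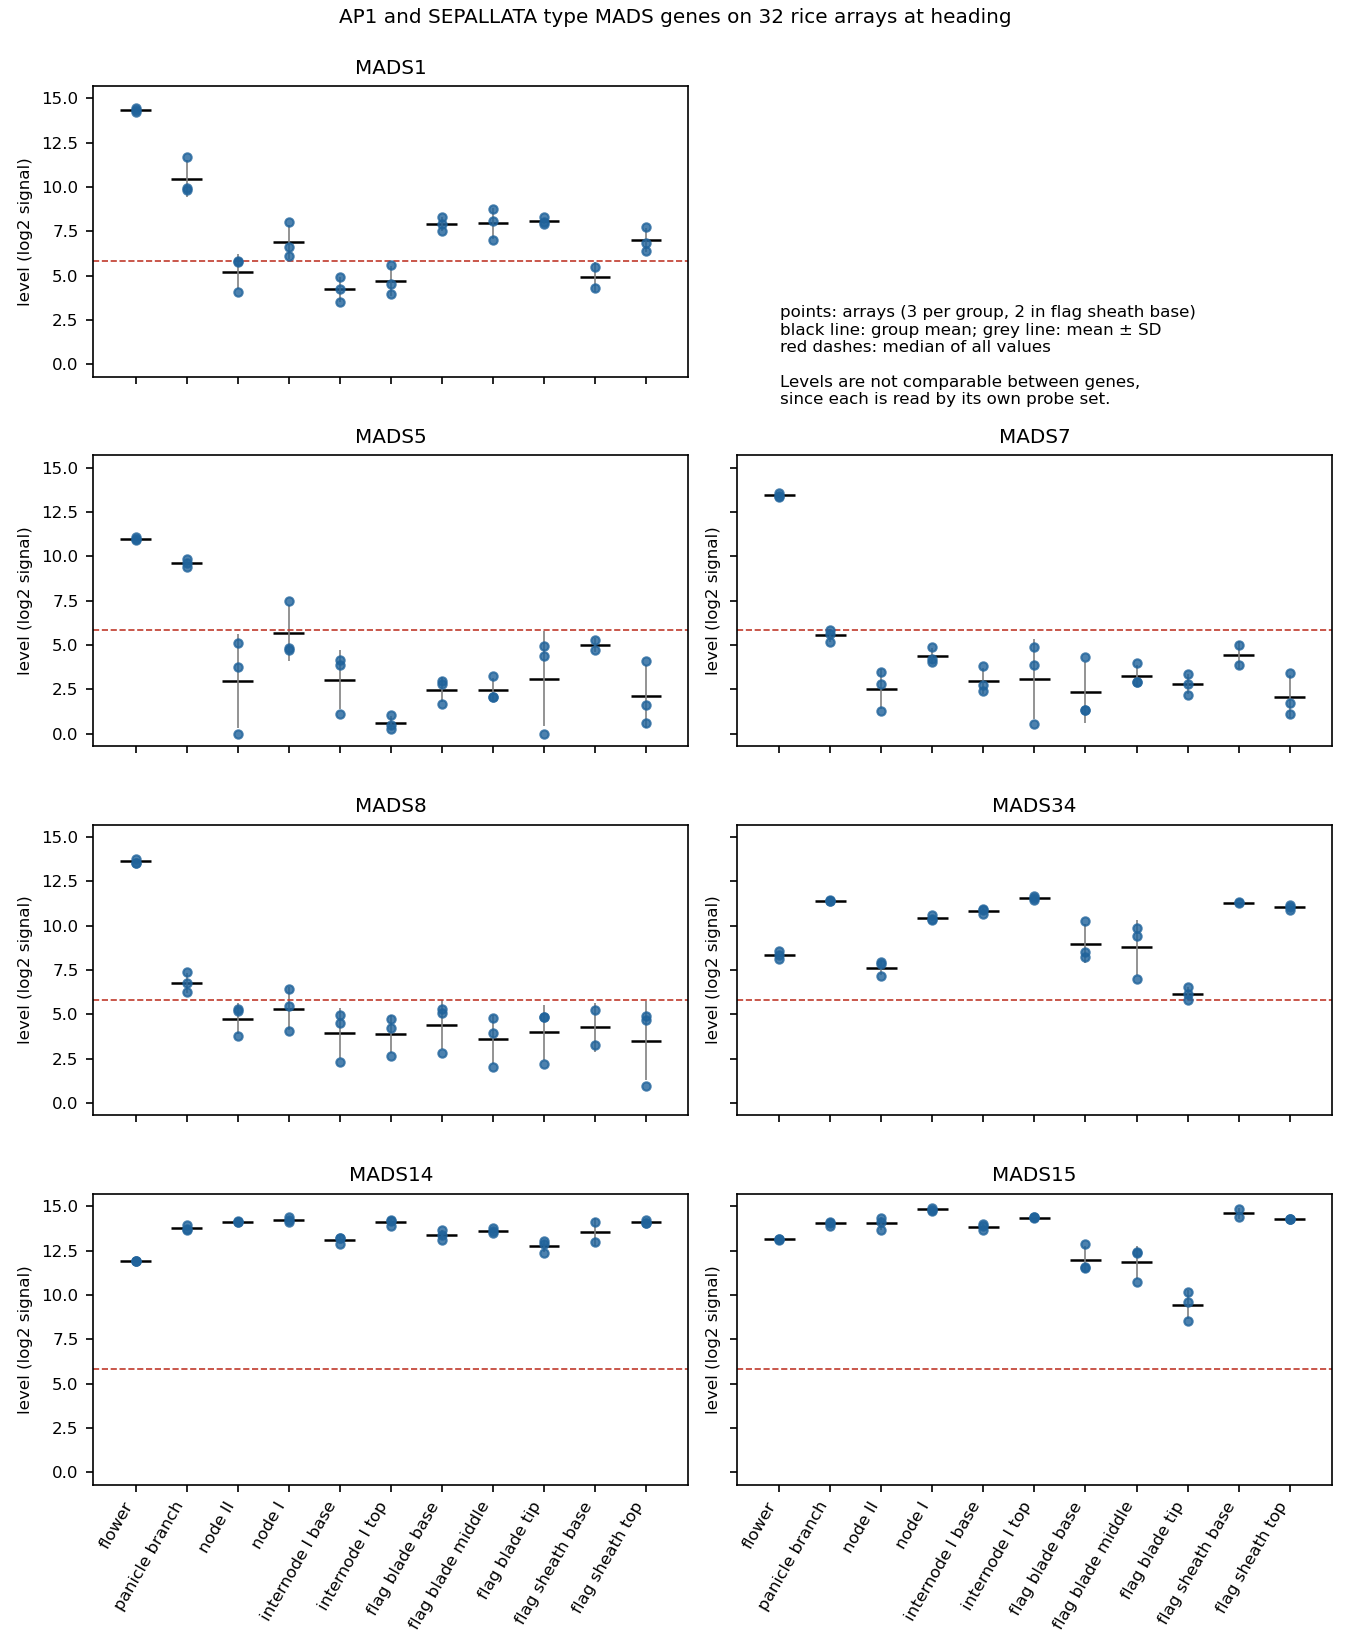
Level (log2 signal) of each of the 7 genes on 32 arrays by organ; points are arrays, black lines group means, grey lines the mean ± SD and red dashes the median of all values (5.83). MADS1, MADS5, MADS7 and MADS8 peak in the flower with the panicle branch second, MADS14 has its lowest mean in the flower, and MADS15 and MADS34 have theirs in the flag blade tip.

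MADS1, MADS5, MADS7 and MADS8 had their highest mean in the flower and their second highest in the panicle branch under each of 3 scalings of the arrays. Outside these organs they parted: MADS1 was above 5.83 on 16 of the other 26 arrays, while MADS5 and MADS8 were above it on 1 of 26 each, both times on node I replicate 3, and MADS7 on 0 of 26. MADS5, MADS7 and MADS8 were therefore tested because of the flower, the panicle branch or that node I array. That they differ between those organs and others follows in part from this filter. Counts of called genes given below include these 3 genes, so those counts are description and not support. The same limit holds for their adjusted p-values in comparisons with the flower or the panicle branch.

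MADS1 (gene LOC4332059, chromosome 3) had levels of 14.34, 14.45 and 14.26 in the flower, against 9.93, 9.82 and 11.67 in the panicle branch. The flower arrays lay together, and panicle branch replicate 3 stood apart from the other two of its group without reaching them. The difference was 3.87 ± 0.60 (SE), or 14.7-fold, with limma's adjusted p of 1.56e-05. In the flag leaf, MADS1 stood at 7.94, 8.31 and 7.51 in the blade base, 8.75, 7.03 and 8.07 in the blade middle and 8.30, 7.93 and 8.03 in the blade tip. These 9 arrays overlap and are all above the median of all values, with no detectable change along the blade. That median is not a detection call, and MADS1 was read at a single probe set. It was dim in internode I, with 3.50, 4.94 and 4.25 at the base and 3.96, 4.54 and 5.62 at the top. In the order of the 11 means, the flower, the panicle branch and then the 3 blade parts, the sheath top and node I came before a gap, and below it node II, the sheath base and both ends of the internode overlapped with their neighbours.

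MADS5 (LOC4340218, chromosome 6) had levels of 10.92, 11.00 and 11.07 in the flower, against 9.64, 9.37 and 9.83 in the panicle branch. The groups did not overlap, yet the difference of 1.38 ± 1.19 (SE) gave an adjusted p of 0.378 (limma). The fit carries 1 spread per probe set over all organs, and MADS5 arrays spread most where it was dim: node II ran from 0.00 to 5.10, and the blade tip from 0.00 to 4.93. With 16 added to every signal before the log, which damps such dim values, the difference was 1.37 with an adjusted p of 0.0154, and the comparison confined to these 6 arrays called it too. Its difference was the smallest in size among the 5 SEPALLATA type genes, though differences were not tested between genes.

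MADS7 (LOC4346134, chromosome 8) and MADS8 (LOC4347517, chromosome 9) showed the steepest steps. MADS7 had levels of 13.34, 13.59 and 13.39 in the flower, against 5.16, 5.86 and 5.60 in the panicle branch, a difference of 7.90 ± 0.87 (SE) with limma's adjusted p of 1.54e-07. MADS8 had 13.52, 13.78 and 13.56 in the flower, against 6.74, 6.25 and 7.36 in the panicle branch, a difference of 6.84 ± 1.03 with an adjusted p of 1.01e-05. Because the panicle branch values lie near the median of all values, the size depends on how dim signal is treated: with 16 added, the differences were 7.47 for MADS7 and 6.63 for MADS8. Their patterns over the 11 group means had a Pearson correlation of 0.98, a description in which the flower mean lies far above the other 10.

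MADS34 (LOC4334141, chromosome 3) is of the SEPALLATA type but did not share this pattern. Its levels were 8.32, 8.59 and 8.10 in the flower, against 11.46, 11.37 and 11.39 in the panicle branch. The flower arrays were all lower, by 3.07 on the log2 scale (difference -3.07 ± 0.49, SE; 8.4-fold; limma's adjusted p 2.33e-05). MADS34 was highest in internode I top at 11.46, 11.58 and 11.69, overlapping the panicle branch, and with array medians set equal the sheath base came first. Its lowest group was the flag blade tip, at 5.81, 6.16 and 6.51.

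MADS14 (LOC4334140, chromosome 3) was bright on all 32 arrays, from 11.90 to 14.38, and lowest in the flower. It had levels of 11.92, 11.90 and 11.91 in the flower, against 13.68, 13.95 and 13.74 in the panicle branch, a difference of -1.88 ± 0.21 (SE), 3.69-fold, with limma's adjusted p of 1.71e-07. The groups did not overlap, and the other 3 MADS14 probe sets were called lower too, with differences of -1.86, -2.43 and -1.07. Which organ came first depended on the scaling: node I led after quantile normalization and with array medians set equal, and internode I top led on the deposited scale.

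MADS15 (LOC4342214, chromosome 7) was above the median of all values on 32 of 32 arrays, from 8.55 in the blade tip to 14.93 in node I. It had levels of 13.13, 13.12 and 13.17 in the flower, against 13.87, 14.14 and 14.07 in the panicle branch, a difference of -0.89 ± 0.38 (SE) with an adjusted p of 0.064 (limma), so it was not called. The groups did not overlap, and the other 3 probe sets of MADS15 were called lower in the flower, with differences of -1.36, -1.49 and -1.83. On the deposited scale and with array medians set equal, the brightest probe set was called as well, at -1.02 and -1.21.

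Set together, 5 of the 7 genes were called between flower and panicle branch, 3 higher and 2 lower in the flower, where 28.6% of all probe sets tested were called, 12.7% higher and 15.9% lower. Markers of other tissues moved in this pair too: the summed signal of 4 green leaf markers was 17429 to 20530 in the flower, against 64667 to 70939 in the panicle branch, and that of 3 secondary wall cellulose synthases was 4741 to 7104 in the flower, against 335 to 1043 in the panicle branch. Their part in these results was not tested. The other flowering and floral genes examined, 27 of them tested, had 12 higher and 7 lower, with a median difference of -0.22 against -0.18 over all probe sets tested. The higher ones were the B class genes MADS2, MADS4 and MADS16, which act in petal-like lodicules and stamens, the C and D class genes MADS3, MADS58, MADS13 and MADS21 of stamens, carpels and ovules, the AGL6 type genes MADS6 and MADS17, the carpel gene DL, and the SVP type genes MADS22 and MADS47. MADS58 had the largest rise, 7.68 ± 0.72 (SE, adjusted p 1.33e-08, limma), and MADS17 followed at 7.14 ± 0.98. MADS3, MADS6, MADS13, MADS17, MADS21 and MADS58 averaged 3.36 to 5.13 over the 35 arrays on the deposited scale, below 5.83. Such genes can pass the filter through the flower arrays. Their counts and adjusted p-values in comparisons with the flower are therefore description and not support. MADS18, another AP1 type gene, moved with MADS14: it averaged 11.55 in the flower and 12.73 in the panicle branch, a difference of -1.18 ± 0.25 (adjusted p 0.000446). The SVP type gene MADS55, the SOC1 type genes MADS50 and MADS56, MADS57, FTIP1 and FON1 were also lower.

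**Figure D2:**
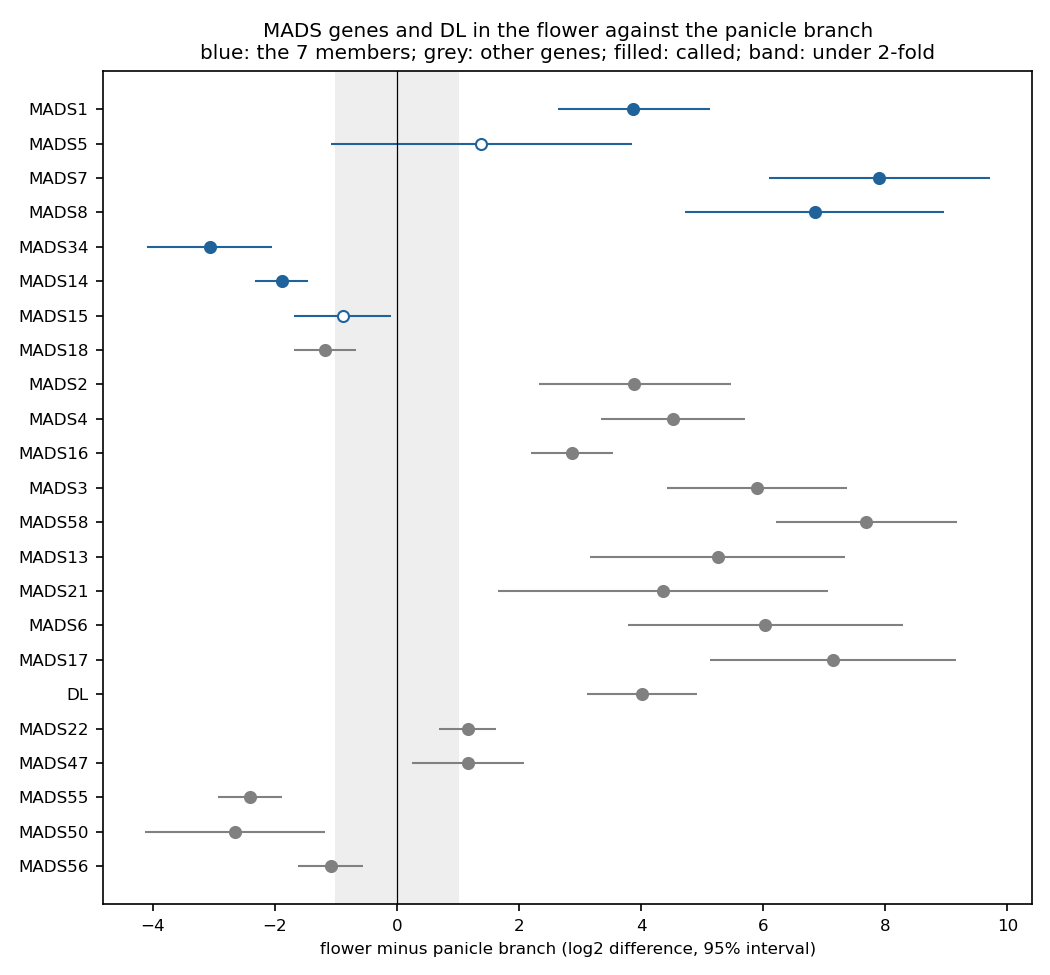
Flower minus panicle branch (log2 difference with its 95% interval) for the 7 genes in blue and for 15 other MADS genes and DL in grey; filled points were called and the grey band marks changes under 2-fold. MADS1, MADS7 and MADS8 lie right of the band with the B, C, D and AGL6 class genes, and MADS14 and MADS34 lie left of it with MADS18.

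Against the middle of the flag blade, a leaf sample, 6 of the 7 genes were called, in a comparison where 37.4% of all probe sets tested were called. MADS1 was higher in the flower by 6.40 ± 0.60 (SE), MADS7 by 10.18 ± 0.87 and MADS8 by 10.04 ± 1.03, with limma's adjusted p between 1.92e-09 and 2.82e-08. Both MADS7 and MADS8 were dim in the blade middle, and with 16 added their differences were 8.75 and 8.71. MADS5 was higher by 8.55 ± 1.19 (adjusted p 2.35e-06), although with 16 added the difference was 6.57. MADS14 was lower in the flower than in the blade, at -1.71 ± 0.21 (adjusted p 3.88e-07). Its other probe sets gave -1.79 and -2.26, both called, and -0.95, not called. MADS34 was not called, at -0.43 ± 0.49, with 8.32, 8.59 and 8.10 in the flower and 7.01, 9.87 and 9.41 in the blade middle, where the arrays span almost 3 log2 units and enclose the flower. Without blade middle replicate 1 it was called lower in the flower, at -1.30.

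MADS15 was called higher in the flower than in the blade middle at its brightest probe set, at 1.31 ± 0.38 (adjusted p 0.00567, limma). That call depended on the probe set, the scaling and the arrays. The other 3 probe sets gave 0.89, 0.88 and -0.20, none of them called, and without blade middle replicate 1 the brightest gave 0.77. With array medians set equal it gave 0.74 (adjusted p 0.134), and in a fit to the compared arrays alone the adjusted p was 0.0696. Among the other floral and flowering genes, 12 were higher and 8 lower of 27 tested (median 0.47, against -0.16 over all). Among the largest rises were AGL6 type MADS6 at 10.18 ± 1.09 and B class MADS2 at 9.86 ± 0.76, both dim in the blade middle, which were 7.76 and 8.65 with 16 added. SVP type MADS55 had the largest fall, -6.53 ± 0.26.

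The panicle branch was then set against internode I top, the stem just below the panicle. Here 2 of the 7 genes were called, where 3.43% of all probe sets tested were. MADS1 had 9.93, 9.82 and 11.67 in the panicle branch, against 3.96, 4.54 and 5.62 in the internode top, a difference of 5.77 ± 0.60 (SE, adjusted p 2.65e-06, limma), or 5.06 with 16 added. MADS5 had 9.64, 9.37 and 9.83 in the panicle branch, against 0.50, 1.02 and 0.26 in the internode top, which is close to the floor of the scale. Its difference of 9.02 ± 1.19 (adjusted p 5.94e-05) was 5.51 with 16 added, so its size depends on dim signal while its call held. MADS7 and MADS8 differed by 2.46 and 2.91 without being called, and with 16 added they were called at 1.12 and 1.99.

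MADS14, MADS15 and MADS34 were not called in this pair. At the brightest probe sets their differences were -0.31 (95% interval -0.75 to 0.12), -0.34 (-1.12 to 0.45) and -0.17 (-1.19 to 0.86). The other 3 probe sets of MADS14 were lower in the panicle branch without overlap, at -0.76, -0.97 and -0.42; the second of these had an adjusted p of 0.024 (limma), at under 2-fold. On every panicle branch array, MADS1, MADS5 and MADS8 stood above the median of all values, as did these 3 genes. In the internode top, MADS14, MADS15 and MADS34 stood above it, and MADS1, MADS5 and MADS8 below it. For MADS8 the levels were 6.74, 6.25 and 7.36 in the panicle branch, against 4.21, 4.75 and 2.67 in the internode top. That median is not a detection call. Of the 27 other flowering and floral genes tested, 3 were higher in the panicle branch (MADS56 3.51 ± 0.26, MADS50 2.52 ± 0.71 and SPL16 2.09 ± 0.59) and 2 were lower (SVP type MADS22 -3.67 ± 0.23 and MADS55 -3.62 ± 0.26), with a median of 0.31 against -0.02 over all.

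In the stem, node I was compared with the base of internode I, which lies just above it. Here 2 of the 7 genes were called, where 29% of all probe sets tested were. MADS1 had 6.61, 6.09 and 8.00 in node I, against 3.50, 4.94 and 4.25 in the internode base, a difference of 2.67 ± 0.60 (SE, adjusted p 0.000913, limma). MADS14 had 14.23, 14.12 and 14.38 in node I, against 12.88, 13.21 and 13.22 in the internode base, a difference of 1.14 ± 0.21 (adjusted p 0.000107). The groups did not overlap for either gene. With 16 added the MADS1 difference was 1.96, and MADS1 was dim in the internode base. MADS5 averaged 5.67 in node I and 3.05 in the internode base, both dim, without overlap. Its difference of 2.62 ± 1.19 was not called (adjusted p 0.0797, limma), but with 16 added it was called, at 1.42 (adjusted p 0.0116). The summed signal of the secondary wall markers was 3957 to 7549 in node I, against 51903 to 61104 in the internode base, and that of the node markers 32094 to 39739 in node I, against 5903 to 8846 in the internode base; their part in these results was not tested. The MADS14 call is close to the 2-fold limit and was lost on the deposited scale, at 0.74, and with array medians set equal, at 0.88, with adjusted p still 0.00437 and 0.00342. The other MADS14 probe sets gave 1.01 and 1.58, both called, and 0.77, not called.

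MADS15 differed by 0.96 ± 0.38 (adjusted p 0.0441, limma) in this pair, just under 2-fold, with 14.93, 14.71 and 14.81 in node I against 13.69, 13.87 and 14.01 in the internode base. Its 2 next brightest probe sets were called, at 1.57 and 1.25, and its dimmest gave 0.05. Of the 27 other flowering and floral genes, 11 were higher in node I and 1 was lower (median 1.11, against 0.07 over all). Hd3a, the florigen gene, had the largest rise, 7.20 ± 0.66 (adjusted p 7.26e-09), followed by MADS6 at 4.45 ± 1.09, the flowering regulator Hd1 at 4.43 ± 0.77 and SPL14 at 2.91 ± 0.72. The linear signal of Hd3a was 3 to 51 in the internode base, all dim, against 1406 to 1826 in node I. The size of its rise thus depends on dim signal. The lower one was SPL16 at -2.21 ± 0.59, and MADS18 was higher by 1.11 ± 0.25.

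Node I replicate 3 was the highest node I array for each of the genes that peak in the flower. It had 8.00 for MADS1, against 6.61 and 6.09 on the other 2 arrays, and 7.50 for MADS5, against 4.70 and 4.81. It had 4.88 for MADS7, against 4.18 and 4.05, and 6.44 for MADS8, against 5.45 and 4.07. The summed signal of the flower markers was 2099, 3253 and 3648 on node I replicates 1, 2 and 3, and 6492, 4399 and 3826 in node II, where the means of these 4 genes were below those of node I. MADS16 was the brightest of these markers in both nodes, with means of 10.83 in node I and 11.90 in node II, so it weighs most in the sum. Counted singly, 2, 4 and 5 of the 6 markers reached 5.83 on node I replicates 1, 2 and 3, against 3 on each node II array. The part of such markers in the MADS1 result was not tested.

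Node II, the next node down, differed little from node I: 0.197% of all probe sets tested were called, and 1 of the 7 genes. It was MADS34, with 7.13, 7.92 and 7.84 in node II, against 10.62, 10.31 and 10.36 in node I. The groups are far apart, and the difference was -2.80 ± 0.49 (SE, 6.98-fold, adjusted p 0.0159, limma). In a fit to the compared arrays alone the adjusted p was 0.191. The call was also lost by a narrow margin when an array was left out: the adjusted p was 0.0658 without node I replicate 1 and 0.0545 without node I replicate 3, at differences of -2.71 and -2.84. The same pair gave -0.12 for MADS14 (95% interval -0.55 to 0.32) and -0.78 for MADS15 (-1.57 to 0.00) at their brightest probe sets. At its other probe sets MADS15 gave -1.16, -1.48 and -1.12, none of them called. For the second of these limma's adjusted p was 0.0501, and with 16 added it was called (adjusted p 0.0297). MADS1 differed by -1.67 and MADS5 by -2.71 without being called. Of the 27 other flowering and floral genes limma called 0 higher and 0 lower (6 of them at an unadjusted p under 0.05), with a median difference of 0.02 against -0.01 over all.

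Node I was also set against the base of the flag leaf sheath, which joins the stem there. Only MADS1 was called of the 7 genes, where 10.4% of all probe sets tested were: it had 6.61, 6.09 and 8.00 in node I, against 5.51 and 4.32 in the sheath base, a difference of 1.98 ± 0.67 (SE, adjusted p 0.0424, limma). That call was lost when node I replicate 1 or node I replicate 3 was left out, at 2.13 and 1.44. Without sheath base replicate 2, which leaves 1 array in that part, the call was lost too, at 1.39. It was also lost in a fit to the compared arrays alone (adjusted p 0.249) and with no filter on low values (adjusted p 0.0678). With the replicate number as a block it was lost at 1.87 (adjusted p 0.0647). MADS14 differed by 0.70 ± 0.23 (adjusted p 0.0393), under 2-fold, and MADS15 and MADS34 by 0.21 and -0.87 without being called. The sheath base arrays stood at 14.10 and 13.00 for MADS14, and without sheath base replicate 1 it was called, at 1.25 (adjusted p 0.00041). Of 27 other genes, 4 were higher in node I, MADS2, FON1, RFL and MADS26, and 0 were lower (median 0.83, against -0.00 over all).

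Position within an organ was examined by setting the base of the flag blade, of the flag sheath and of internode I against its distal end. In the blade, 2 of the 7 genes were called between base and tip, where 0.466% of all probe sets tested were. MADS15 had 11.57, 11.54 and 12.87 in the blade base, against 8.55, 9.59 and 10.16 in the tip, a difference of 2.56 ± 0.38 (SE, adjusted p 0.00116, limma). MADS34 had 8.49, 8.21 and 10.26 in the base, against 5.81, 6.16 and 6.51 in the tip, a difference of 2.83 ± 0.49 (adjusted p 0.0052). The groups did not overlap for either gene. Of the 4 MADS15 probe sets, 3 were called, and the dimmest gave 1.57 without a call. MADS14 differed by 0.64 ± 0.21, which was not called.

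The step lay between the middle and the tip of the blade. From base to middle 0 of the 7 genes were called, where 0.0259% of all probe sets tested were, by limma, and 0 of the 7 had an unadjusted p under 0.05 (2703 of all probe sets did). MADS15 and MADS34 differed there by 0.17 (95% interval -0.62 to 0.95) and 0.22 (-0.80 to 1.24). Between middle and tip 2 of 7 were called, where 1.85% of all probe sets tested were. MADS15 had 10.73, 12.40 and 12.35 in the middle, against 8.55, 9.59 and 10.16 in the tip (2.39 ± 0.38, adjusted p 0.00111). MADS34 had 7.01, 9.87 and 9.41 in the middle, against 5.81, 6.16 and 6.51 in the tip (2.60 ± 0.49, adjusted p 0.00521). MADS14 differed by 0.85 ± 0.21 with an adjusted p of 0.0279, under 2-fold.

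Blade middle replicate 1 was the lowest array of its group for both MADS15 and MADS34, and blade base replicate 3 the highest of its group for both. MADS1 did not follow this: it had 8.75 on blade middle replicate 1 and 7.51 on blade base replicate 3. In fits to the compared arrays alone, which estimate the spread from 6 arrays, neither gene was called: the adjusted p was 0.371 for MADS15 and 0.361 for MADS34 between base and tip, and 0.333 and 0.368 between middle and tip. The summed signal of the 4 measured green leaf markers was 48068 to 50316 in the blade base and 45352 to 53289 in the tip, so these ranges overlapped. Of the 27 other flowering and floral genes, limma called 0 between base and tip, base and middle, or middle and tip of the blade. At an unadjusted p under 0.05 there were 3, 1 and 5 of them, and their median differences were 0.14, 0.11 and 0.09, against 0.00, 0.00 and -0.01 over all.

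In the flag sheath the pattern differed. MADS1 was the 1 gene of 7 called, where 17.6% of all probe sets tested were: it had 5.51 and 4.32 in the sheath base, against 6.85, 6.40 and 7.75 in the sheath top, a difference of -2.08 ± 0.67 (SE, adjusted p 0.0231, limma). Without sheath base replicate 2 it was -1.49 and without sheath top replicate 3 it was -1.71, neither of them called, and a fit to the compared arrays alone gave an adjusted p of 0.119. MADS15 had 14.82 and 14.39 in the base, against 14.28, 14.28 and 14.26 in the top, and MADS34 had 11.30 and 11.31 in the base, against 11.06, 11.17 and 10.87 in the top. Both were bright in both parts, with differences of 0.33 (95% interval -0.55 to 1.21) and 0.27 (-0.88 to 1.41).

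MADS14 stood at 14.10 and 13.00 in the sheath base, against 14.07, 14.05 and 14.23 in the top, and the spread of the base pair encloses part of the top. Without sheath base replicate 1, which leaves 1 array, it was called lower in the base at -1.12 (adjusted p 0.000511). The sheath base also differed from the top in markers of other kinds. The summed signal of 3 secondary wall cellulose synthases was 1959 and 8238 in the base against 110 to 168 in the top, and that of 4 green leaf markers was 12832 and 25152 against 37315 to 47487; their part in the MADS1 result was not tested. Of 27 other genes 2 were higher in the base (MADS2 2.54 ± 0.85 and SPL14 2.47 ± 0.80) and 3 lower (MADS57 -2.64 ± 0.77, MADS56 -1.39 ± 0.29 and MADS18 -1.28 ± 0.28), with a median of -0.04 against -0.05 over all.

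In internode I, where the base carried secondary wall markers at a summed signal of 51903 to 61104 against 703 to 1354 in the top, 1 of the 7 genes was called, and 32.5% of all probe sets tested were. MADS14 had 12.88, 13.21 and 13.22 in the base, against 14.17, 13.90 and 14.25 in the top, a 2-fold lower level in the base (SE 0.21 on the log2 scale, adjusted p 0.000361, limma). The groups did not overlap, but the change sits at the limit for a call, and it was -0.84 on the deposited scale and -0.77 with array medians set equal. The other MADS14 probe sets gave -1.28 and -1.27, both called, and -0.68, not called. The part of the wall markers in the MADS14 change was not tested. MADS15 and MADS34 differed by -0.51 ± 0.38 and -0.74 ± 0.49 and were not called, with groups that did not overlap. The second brightest probe set of MADS15 was called lower in the base, at -1.03 (adjusted p 0.0154). Of 27 other genes 5 were higher in the base and 8 lower (median -0.34, against -0.12 over all). Hd3a had the largest fall, -9.22 ± 0.66 (adjusted p 1.38e-10), followed by MADS57 at -5.04 ± 0.69. The linear signal of Hd3a was 3 to 51 in the base, all dim, against 5488 to 7857 in the top. The size of its fall thus depends on dim signal. MADS18 was lower (-1.09 ± 0.25), and SPL16 had a rise of 2.46 ± 0.59.

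**Figure D3:**
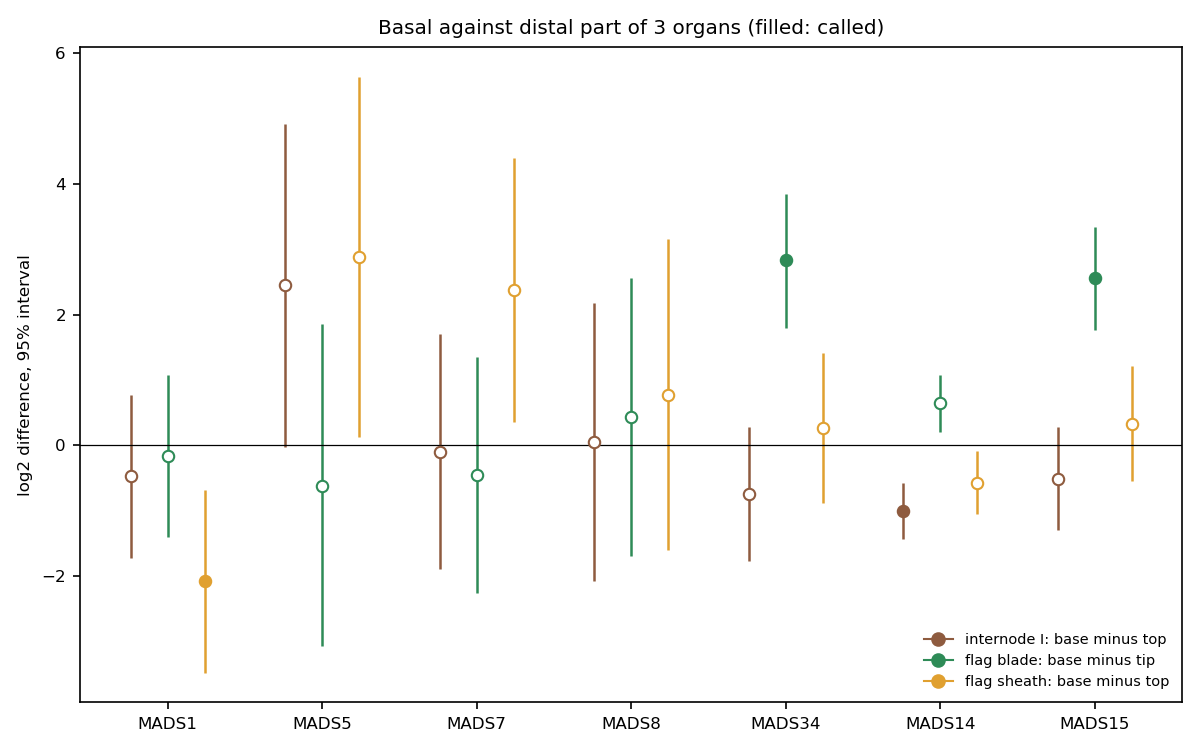
Basal minus distal difference (log2, with its 95% interval) of the 7 genes in internode I, the flag blade and the flag sheath; filled points were called. MADS34 and MADS15 lie at 2.83 and 2.56 in the blade and near 0 or below in the other organs, while MADS1 lies at -2.08 in the sheath.

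Whether these differences themselves differ between organs was tested by subtracting them from each other in the same fit. The blade difference exceeded the sheath difference for 3 of the 7 genes, where 14.8% of all probe sets tested were called and 7.83% in this direction. It exceeded it by 1.21 ± 0.31 (SE) for MADS14, 2.22 ± 0.57 for MADS15 and 2.56 ± 0.74 for MADS34, with limma's adjusted p of 0.00894, 0.00823 and 0.0174. These calls were lost without sheath base replicate 2, which leaves 1 array in that part, at 0.66, 2.01 and 2.57, and for MADS34 also without blade base replicate 3, at 1.92 (adjusted p 0.0501). MADS14 lost its call with array medians set equal, at 0.86 (adjusted p 0.0945), and 2 of its other 3 probe sets were not called, at 0.70 and 0.80; the dimmest MADS15 probe set gave 1.08 without a call. In a fit to the compared arrays alone none of the 3 was called, with adjusted p of 0.138, 0.0848 and 0.0638.

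The internode difference lay below the blade difference for the same 3 genes, where 28.5% of all probe sets tested were called and 16.6% in this direction. The values were -1.64 ± 0.30 for MADS14, -3.07 ± 0.54 for MADS15 and -3.57 ± 0.70 for MADS34, with limma's adjusted p of 0.000141, 0.000103 and 0.000329. Between internode and sheath limma called 0 of the 7 genes at the brightest probe set, where 17.3% of all probe sets tested were called. There 0 of the 7 had an unadjusted p under 0.05, and MADS14, MADS15 and MADS34 differed by -0.43, -0.84 and -1.01. Another MADS14 probe set was called lower, at -1.15 (adjusted p 0.0294, limma), while its remaining ones gave -0.48 and -0.37 without a call. The other MADS15 probe sets gave -1.21, -0.68 and -1.22, none of them called. The 3 comparisons share their arrays. MADS18, also of the AP1 type, gave 1.60 ± 0.37 for blade minus sheath and -1.41 ± 0.35 for internode minus blade, both called.

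Across the junction of blade and sheath, the blade base was set against the sheath top. Here 2 of the 7 genes were called, both lower in the blade, where 8.54% of all probe sets tested were called and 5.12% were lower. MADS15 had 11.57, 11.54 and 12.87 in the blade base, against 14.28, 14.28 and 14.26 in the sheath top, a difference of -2.28 ± 0.38 (SE, adjusted p 0.000236, limma), and its other 3 probe sets were called at -2.42, -2.50 and -2.29. MADS34 had 8.49, 8.21 and 10.26 in the blade base, against 11.06, 11.17 and 10.87 in the sheath top, a difference of -2.05 ± 0.49 (adjusted p 0.00599), or 0.0721 in a fit to the compared arrays alone. MADS14 differed by -0.72 ± 0.21 (adjusted p 0.0215), under 2-fold, and MADS1 by 0.92 (95% interval -0.33 to 2.17). From the sheath through the blade base to the blade tip, MADS15 and MADS34 thus stood at 3 levels whose arrays did not overlap. Of 27 other genes 1 was higher in the blade base (MADS56 1.38 ± 0.26) and 1 lower (MADS3 -2.63 ± 0.71, both of whose levels, 2.10 and 4.73, are dim), with a median of 0.20 against 0.02 over all.

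Flag leaf, leaf 2 and leaf 4, numbered downward from the flag leaf, were also sampled as whole blades, which were read on 1 array each, so no difference between them has a replicate check. MADS34 stood at 8.54, 4.25 and 1.63 in this order. MADS15 stood at 11.31, 9.51 and 7.25, and MADS14 at 13.46, 12.85 and 10.62. At the brightest probe set all 3 were lower with each step down the plant, and MADS34 passed below the median of all values already in leaf 2.

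Leaf 4 differed from the flag blade by -2.83 for MADS14, -4.07 for MADS15 and -6.91 for MADS34. With 16 added to the signals these were -2.82, -3.93 and -4.35, so the order of the 3 differences held while the size for MADS34 depends on dim signal. A fall of at least 2-fold was seen for 5 of the 7 genes, counting MADS5 and MADS7, which were dim in every blade, where 11.1% of all probe sets had one. A fall of at least 3 on the log2 scale was met by 1.54% of all probe sets, and by MADS5, MADS15 and MADS34. The other probe sets of MADS14 gave -2.71, -2.57 and -1.73, and those of MADS15 gave -3.79, -3.47 and -3.45. The dimmest MADS15 probe set stood at 5.91, 1.58 and 2.46 in the flag blade, leaf 2 and leaf 4, so it was higher in leaf 4 than in leaf 2, both dim.

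MADS1 stood at 8.39, 8.74 and 8.82 in the flag blade, leaf 2 and leaf 4, differences of 0.34 and 0.43 from the flag blade. Its blade signal was thus above the median of all values at 3 leaf positions and at each of 3 points along the flag blade. MADS8 stood at 4.29, 4.31 and 3.59, below the median of all values in each.

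**Figure D4:**
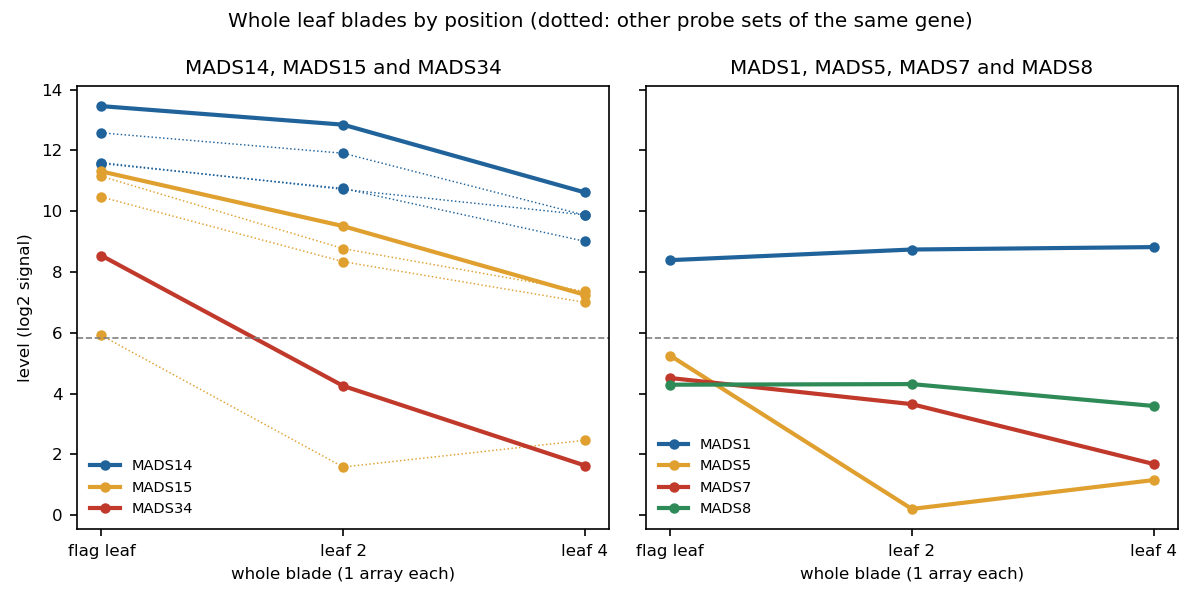
Level (log2 signal) in the whole blade of the flag leaf, leaf 2 and leaf 4, with 1 array each; dotted lines are the other probe sets of MADS14 and MADS15 and grey dashes the median of all values (5.83). The brightest probe sets of MADS14, MADS15 and MADS34 (solid lines) are lower at each step, with MADS34 at 8.54, 4.25 and 1.63, the dimmest MADS15 probe set is higher in leaf 4 than in leaf 2, and MADS1 stays between 8.39 and 8.82.

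Over the 11 group means, the genes that peak in the flower had alike patterns by Pearson correlation, while the others were less uniformly alike. These correlations describe 11 organs read on one set of arrays and carry no test. MADS1, MADS5, MADS7 and MADS8 correlated with each other at 0.79 to 0.98. The flower mean is the highest for each of them, so these values in part restate that peak. MADS15 and MADS34, of different types, correlated at 0.79, while MADS34 had -0.31 with MADS1, its relative within the SEPALLATA type. MADS14 correlated at 0.52 with MADS15 and at 0.47 with MADS34. It ran against the flower genes, with -0.63 for MADS1, -0.48 for MADS5, -0.68 for MADS7 and -0.66 for MADS8.

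**Figure D5:**
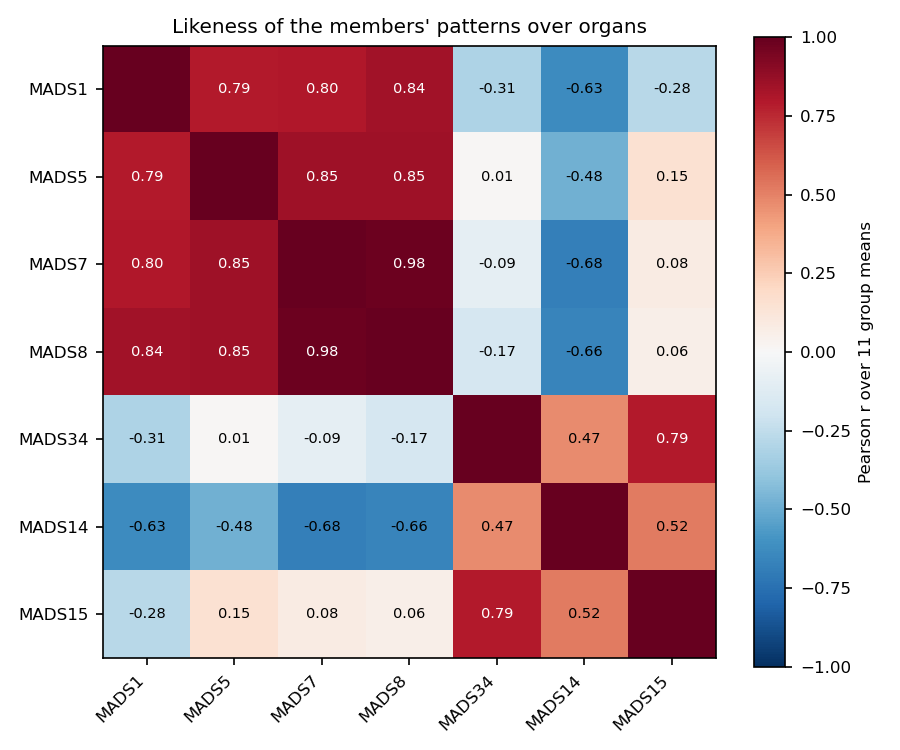
Pearson correlation between the 7 genes over 11 group means, coloured from -1 (blue) to 1 (red). MADS1, MADS5, MADS7 and MADS8 form a block of 0.79 to 0.98, and MADS15 and MADS34 pair at 0.79.

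MADS14 and MADS34 are neighbours on chromosome 3 in the RefSeq gene table (assembly ASM3414082v1), with no gene listed between them. Their patterns correlated at 0.47: both were low in the flower and in the blade tip, but node II was among the highest organs for MADS14 and the second lowest for MADS34. MADS1 lies next to DL, the gene of carpel identity and of the leaf midrib, and these correlated at 0.87, with DL also highest in the flower at 10.39. MADS7 lies next to SPL16, which correlated with it at 0.30.

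Among 2926 probe sets of other named genes, those most like each of the 7 in pattern over the 11 means were as follows, as a description only. MADS7 was closest to Chia1d, a chitinase gene (0.96), CML32 (0.95) and EXPB10, a beta expansin gene (0.95), and MADS8 to Chia1d (0.98), GDH2 (0.96) and MPK16 (0.95). MADS1 was closest to NifU1 (0.93), the potassium transporter gene HAK25 (0.92) and the beta expansin gene EXPB9 (0.90), and MADS5 to OsC3H10 (0.93), ACA7 (0.91) and TIFY11A (0.88). MADS14 was closest to the sodium transporter gene HKT1;5 (0.93), OrysaZxb (0.92) and SAP7 (0.92). MADS15 was closest to the metallothionein genes MT2B (0.95) and MT2C (0.93) and to the auxin response gene IAA17 (0.94). MADS34 was closest to CSLH1, a cellulose synthase-like gene (0.90), and to the auxin response genes IAA20 (0.85) and IAA1 (0.83). With 16 added to the signals, 18 of these 21 stayed among the 3 closest.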

How the data were processed

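RNA of 35 samples was hybridised to 1-colour Affymetrix arrays for rice. The deposited table holds signal intensity on a linear scale (0.0536 to 66643) whose trimmed mean, with 2% left out at each end, is 500.06 to 500.08 on every array, as the deposited values show; the software that scaled them was not given in the sources used here. Groups follow the labels, and 0 value columns were left without a sample.

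Signals were taken to log2 and quantile normalized over 35 arrays (limma 3.58.1, R 4.3.3), since array medians ran from 5.39 to 6.36, with a floor at signal 1. The 123 control probe sets were left out. Probe sets at or above 5.83 on at least 3 of 32 replicated arrays were tested with lmFit and eBayes, 1 mean per group (residual degrees of freedom 21, prior 1.65). A call needed an adjusted p under 0.05 and 2-fold. Whole blades were not fitted. The fit was tested on simulated data. Probe sets took their gene from the platform annotation (22436 with 1 gene, 95 with several, others unnamed). Of 43 pathway genes, 29 were matched by symbol to a probe set, 3 had none, 9 had no symbol match, 2 symbols belonged to another gene, and MADS20 and FZP did not pass the filter. Members, lists and tests were chosen with earlier results of these data known. The genes named are the 7 members, the 3 probe sets most like each, and from the pathway list in general up to 4 called genes per comparison with the largest change, plus those a sentence needed. Same-numbered replicates of different organs did not deviate together (median correlation 0.01 over 155 pairs, against -0.00 over 310 pairs of different number), so no pairing was used. Alternatives were other scalings, an added 16, no filter, other probe sets, no fold limit, a replicate block, a fit to the compared arrays and leaving out each array.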

Additional observations from a re-analysis of the deposited data

Results flagged for a closer look

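The basal against distal difference of MADS14, MADS15 and MADS34 differed between organs at the brightest probe set, by the test of the difference itself (limma). The blade difference exceeded the sheath difference by 1.21 for MADS14, 2.22 for MADS15 and 2.56 for MADS34. The internode difference minus the blade difference was -1.64 for MADS14, -3.07 for MADS15 and -3.57 for MADS34. The excess of the blade over the sheath was not called for MADS14 with array medians set equal (0.86, adjusted p 0.0945) or at 2 of its other 3 probe sets, nor for MADS15 at its dimmest probe set (1.08, adjusted p 0.363), and none of the 3 genes was called without sheath base replicate 2 or in a fit to the compared arrays alone. The blade base and blade tip arrays enter both contrasts, so these are not independent of each other.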

How the results depend on the processing

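Of 224 alternative values of the counts of genes called, 190 stayed within 1.5 times the reported count and 34 did not. Of 1643 values of single genes, 1560 stayed on their side of the threshold, 49 lost a call, 32 gained one and 2 reversed. Called differences among the 1560 kept their direction, whereas those not called could change sign. MADS14 in node II minus node I, for example, was -0.12 at its brightest probe set and 0.07 at another, neither called. Both reversals are MADS15 in flower minus flag blade middle, at -0.20 for its dimmest probe set. On the deposited scale and with array medians set equal, internode I base minus top had 0 genes called and node I minus internode I base had 1, and the deposited scale moved the median of all probe sets by 0.26 in flower minus flag blade middle and 0.13 in node I minus flag sheath base. With 16 added to the signals, panicle branch minus internode I top had 4 and internode I base minus top 0. With no filter, node I minus flag sheath base had 0, and with no 2-fold limit it had 2. Without probe sets marked as less specific, blade base minus tip and blade middle minus tip had 1 each. With the replicate number as a block, node I minus flag sheath base had 0 (MADS1 1.87, adjusted p 0.0647, limma), and the block changed no other call. The replicate numbers did not pair the samples. Fitted to the compared arrays alone, 0 genes were called in node II minus node I, node I minus flag sheath base, blade base minus tip, blade middle minus tip, flag sheath base minus top and blade gradient minus sheath gradient, and 1 in blade base minus sheath top and in internode gradient minus sheath gradient, with fewer arrays behind the spread. Leaving out 1 array gave 0 to 4 genes for blade gradient minus sheath gradient, 3 to 4 for internode minus blade gradient, 0 to 1 for internode minus sheath gradient and for node II minus node I, 0 to 2 for internode base minus top, sheath base minus top and node I minus sheath base, and 2 to 3 for panicle branch minus internode top. Without a sheath base array that part has 1 array, assumed to vary like the other groups. Dim signals, below 5.83, limit the size of differences of MADS5, MADS7 and MADS8, and of MADS1 where internode I is compared.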
